A study of Oryza sativa with 4 samples.

Results

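The regions described here are stretches of the rice genome where OsMADS2 immunoprecipitation exceeded mock within a gene body. They were taken from the authors' table of confident regions, in which each region is listed with its nearby genes and its position to each of them. A region was taken when at least 1 of its genes held it wholly inside, or when it overlapped the end of at least 1 gene, and when it touched the start of no listed gene and covered none whole. This gave 461 of the 1442 confident regions (32.0%). The other regions were 651 that crossed a gene start or covered a whole gene, called start-crossing below, and 330 intergenic ones. The choice used positions alone and no fold. The genes that hold a gene-body region are called hosts. There were 492 hosts among the 2589 genes of the table (19.0%), in 508 pairs of a region and a host, 440 with the region inside and 68 with the region across the gene end.

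The assay was chromatin immunoprecipitation followed by sequencing (ChIP-seq) in young panicles, 0.3 to 2 cm long, of wild-type TP309 rice. Of 4 libraries, 2 were precipitated with an antibody against OsMADS2 (IP5 and IP6) and 2 with rabbit IgG (mock 5 and mock 6), and the file headers call the numbers biological replicates. All 4 came from wild-type tissue, and no mutant library was analysed here. Each tissue sample was a pool of whole panicles, and the cell type behind a region cannot be told apart. Chromatin of all groups was fixed with 1% formaldehyde and cut to 150 to 900 bp with micrococcal nuclease, an enzyme that digests DNA between nucleosomes.

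OsMADS2 belongs to the PISTILLATA-like MADS-domain proteins, which act in grasses in lodicule and stamen identity. MADS-domain proteins bind DNA as dimers at short AT-rich elements called CArG boxes. Such elements are best known upstream of genes, but a well studied case lies within one: in Arabidopsis, the stamen and carpel gene AGAMOUS is controlled through a large intron. The table used here gives gene bounds and strand without exons, so a place below is a distance along the gene and not an exon, intron or UTR. The genome build of the coordinates was not given in the sources used here, and no sequence is printed.

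The deposited read counts were 9142837 and 15934402 uniquely mapped reads in IP5 and IP6, against 13248694 and 16742118 in mock 5 and mock 6. The authors' peak lists, with an IP library first and its mock library after the stroke, are written IP5/mock5 (24169 peaks), IP5/mock6 (58213 peaks) and IP6/mock6 (10602 peaks). Both lists with IP5 share that library, so IP5/mock5 and IP6/mock6 are the pair that share none. The folds below are the authors' own values per peak, and a region's fold in a list is that of its highest peak there. Where 3 folds stand together, they are those of IP5/mock5, IP5/mock6 and IP6/mock6, in that order. Every confident region has a peak in all 3 lists because the table was built that way. Members of the set share the same 4 libraries and are not replicates, so counts and medians are given beside those of all confident regions and without a test.

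Within their hosts, the regions lay more often near the gene start than in any other part of the gene. The relative place of a region is the distance of its midpoint from the gene start divided by gene length, so 0 is the start and 1 the end. Over the 508 pairs the median was 0.255, with quartiles at 0.0791 and 0.685. The first 20% of the gene length held 227 pairs (44.7%; Wilson 95% interval 40.4 to 49.0%, counting error only). The next 3 stretches of 20% held 62, 69 and 56 pairs, and the last 20%, with midpoints past the end counted in it, held 94 (18.5%). Of those 94 pairs, 59 were regions across a gene end and 35 lay inside. For the 440 pairs inside a gene the median place was 0.173, and for the 68 pairs across an end it was 0.940.

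Measured in bases, the edge of a region that faces the gene start stood a median of 100.5 bp inside the gene over the 440 inside pairs. It was at most 24 bp inside in 112 pairs (25.5%) and at most 100 bp inside in 220. The edge that faces the gene end was at most 100 bp from it in 29 pairs (6.59%), with a median gap of 2199 bp. Within 250 bp, 255 pairs (58.0%) stood at the gene start and 84 (19.1%) at the gene end. The edges were thus denser at the gene start than at the gene end.

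The gene start, which divides gene-body regions from start-crossing ones, did not fall in a gap of this distribution. Over all pairs of the table, leaving out genes covered whole, 162 regions had that edge in the 50 bp before the gene start and 171 in the first 50 bp within the gene, of which 165 were gene-body pairs. In the 50 bp beyond, on the outer side 54 pairs and on the inner side 64 were counted. The highest peaks of the single lists did the same. IP5/mock5 had 162 edges in the 50 bp before the start and 217 in the first 50 bp within, IP5/mock6 had 142 and 222, and IP6/mock6 had 92 and 170. At the gene end the matching counts of region edges were 11 outside and 32 inside.

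**Figure D1:**
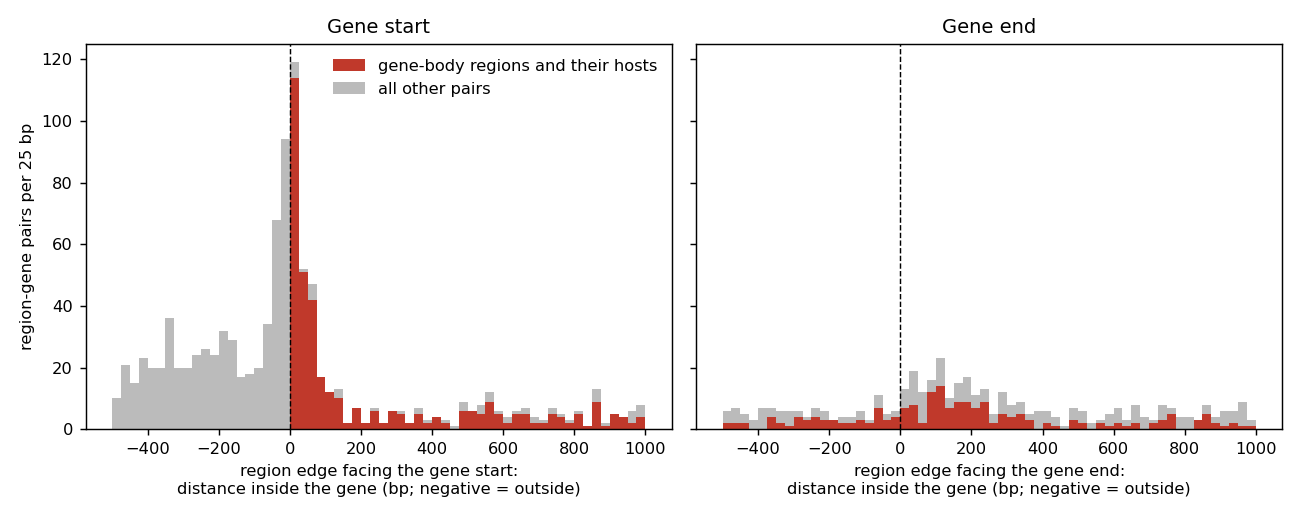
Distance of region edges from gene borders in bins of 25 bp; red, gene-body regions with their hosts; grey, all other region-gene pairs, genes covered whole left out. Left, the edge facing the gene start peaks at the start itself, with 94 pairs in the last bin outside and 119 in the first bin inside. Right, the edge facing the gene end shows no peak of that height. Its highest bin, 23 pairs, lies 100 to 124 bp inside the gene.

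The regions nearest to that border on the inner side began at the first base of the gene. One lay in OsPDHE1-A (Os02g0739600, chr2:30922675-30922942, gene of 4095 bp), which its symbol names as a subunit of pyruvate dehydrogenase. Its folds were 3.16 in IP5/mock5, 5.25 in IP5/mock6 and 3.53 in IP6/mock6. Another was in Os03g0765400 (chr3:31696372-31696827), with 6.65, 5.50 and 4.63 in the same order of lists. The third, in the 285-bp gene Os01g0317500, had 3.54, 4.86 and 2.11. That region was 273 bp wide and covered nearly the whole gene, so it lay near the gene end as well. In all, 8 inside pairs had their edge exactly on the gene start, so the 3 named here were tied with others. On the outer side, a start-crossing region in the peroxidase gene prx56 (Os04g0628200, chr4:31965779-31966030) lay within the gene but for 1 bp, with folds of 5.93, 4.33 and 4.76. The start-crossing regions that reached farthest in were in OsC3H53 (3776 bp into a gene of 4064 bp), in Os07g0571100 (3169 bp of 6175 bp) and in OsRLCK204 (2259 bp of 7605 bp). Those are inner edges of the most extreme cases. The midpoints over all gene-body pairs, a different measure, had a median of 569 bp from the gene start.

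In hosts under 10 kb the median distance from the start varied less with gene length than the median relative place did. In hosts under 2 kb the 139 pairs had a median relative place of 0.578 and a median midpoint 676 bp from the start. In hosts of 2 to 5 kb the 256 pairs had medians of 0.154 and 473 bp, and in hosts of 5 to 10 kb the 104 pairs had 0.110 and 649 bp. The 9 pairs in hosts of 10 kb or longer stood apart at 0.310 and 5654 bp. These medians pool inside pairs with pairs across the gene end. The latter were 31.7% of pairs under 2 kb, 7.03% at 2 to 5 kb and 4.81% at 5 to 10 kb. A short gene also leaves little room for a midpoint far from its start, so the classes are not like for like. By the edge facing the gene start, 45.3% of inside pairs under 2 kb began within 100 bp of it. The same held for 54.2% at 2 to 5 kb, 46.5% at 5 to 10 kb and 2 of 8 pairs at 10 kb or longer. Among hosts of 5 to 10 kb, 67 of 104 pairs (64.4%) lay in the first 20% of the gene, and 6 lay between places 0.4 and 0.8.

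**Figure D2:**
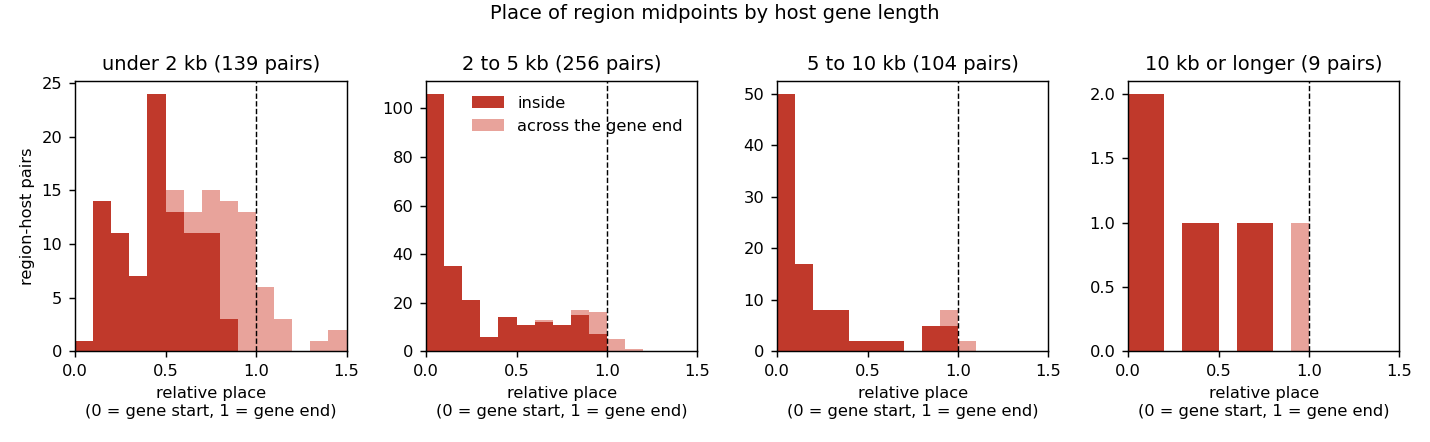
Relative place of region midpoints (0, gene start; 1, gene end) in hosts of 4 length classes; dark, region inside the gene; light, region across the gene end; the vertical scales differ. Midpoints crowd toward 0 in hosts of 2 to 10 kb and spread over hosts under 2 kb. In the shorter hosts a region's own width takes up more of the gene.

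Hosts had a median length of 3300.5 bp, against 2655 bp for all genes of the table and 3214 bp for the 618 genes with a region across the start. Regions across a gene end had short hosts, with a median of 1676 bp. The share of the table's genes that were hosts was 14.2% under 2 kb, 21.2% at 2 to 5 kb, 24.04% at 5 to 10 kb and 19.5% at 10 kb or longer. A longer gene offers more room for a region inside it, and no test of length was made.

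The longest host was OsOSC7 (Os11g0189600, 35570 bp), which encodes an oxidosqualene cyclase, the enzyme class that closes the ring system of sterols and triterpenes. Its region (chr11:4527719-4528272) began 5377 bp from the start, with folds of 2.73, 4.04 and 2.11 in IP5/mock5, IP5/mock6 and IP6/mock6. The region of the receptor-like cytoplasmic kinase gene OsRLCK336 lay at place 0.496 of 15859 bp, with 3.44, 3.99 and 4.10. In Os02g0825650 (16949 bp) and Os09g0527100 (12342 bp) the regions began 55 and 3 bp from the start.

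Median enrichment over mock in gene bodies was close to that of all confident regions in the lists with IP5 and lower than it in IP6/mock6. In IP5/mock5 the median fold was 3.33 in the 461 gene-body regions. It was 3.31 in the 651 start-crossing regions, 3.24 in the 330 intergenic ones and 3.31 over all 1442. In IP5/mock6 it was 3.83 in gene bodies, against 3.86 in start-crossing regions, 3.81 in intergenic ones and 3.82 over all. In IP6/mock6 it was 2.95 in gene bodies, against 3.19 in start-crossing regions, 3.08 in intergenic ones and 3.08 over all. A fold of 4 or more was reached in IP5/mock5 by 145 gene-body regions (31.5%; all confident regions 29.9%). It was reached in IP5/mock6 by 187 (40.6%; all 42.8%) and in IP6/mock6 by 64 (13.9%; all 18.0%). The shares in both lists with IP5 were near those of all regions, and the share in IP6/mock6 was lower. Among intergenic regions 18.2% reached 4 in IP6/mock6. Gene-body regions are themselves part of all regions, and no difference was tested. The median width was 483 bp in gene-body regions, against 686 bp in start-crossing and 441 bp in intergenic regions, and its part in these differences was not tested.

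A fold of 4 or more in both IP5/mock5 and IP6/mock6 was reached by 30 of the 461 regions (6.51%; Wilson interval 4.60 to 9.14%), where the share over all confident regions was 7.56%. Among start-crossing regions the count was 49 of 651 (7.53%), and among intergenic ones 30 of 330 (9.09%). Without the need for both replicates, 145 regions pass on IP5/mock5 and 64 on IP6/mock6, as above. The folds of the 2 lists followed each other weakly across the 461 regions (Spearman rho 0.155, Pearson r 0.204), a description over regions that share libraries. The highest peaks of the 2 lists overlapped in 428 of 461 regions (92.8%), and their midpoints lay a median of 101 bp apart. Folds took repeated values. Exactly the same IP5/mock5 fold as another gene-body region was listed for 155 regions, and 14 had the same fold over mock 5 as over mock 6.

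**Figure D3:**
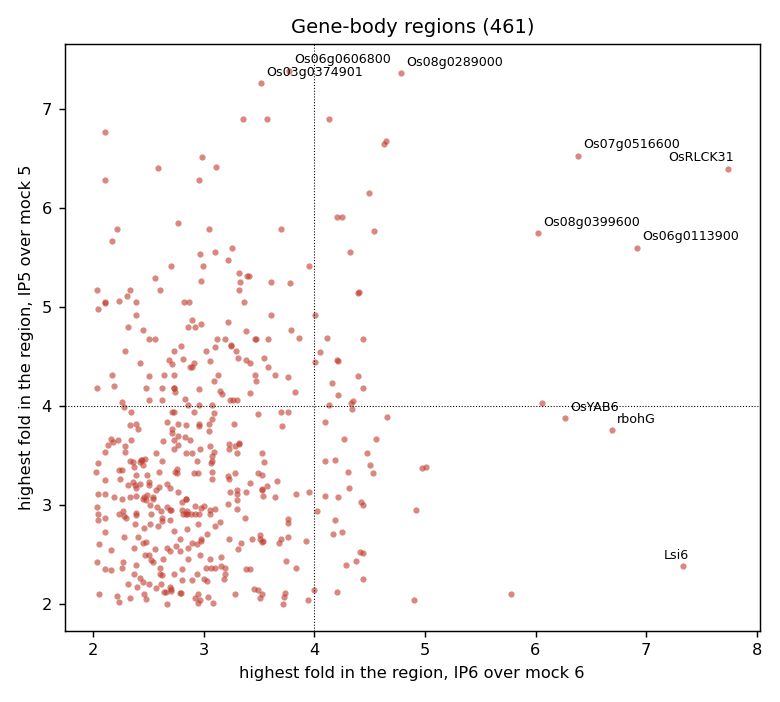
Highest fold of each of the 461 gene-body regions in IP6/mock6 (horizontal) and in IP5/mock5 (vertical); each point is 1 region, dotted lines mark a fold of 4, and named points are hosts described in the text. The 30 regions in the upper right field pass 4 in both, and 4 of them pass 5 in both.

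The region of highest fold in IP6/mock6 was in OsRLCK31 (Os01g0310500, chr1:11661632-11663117), a receptor-like cytoplasmic kinase gene of 11261 bp. Its folds were 6.40 in IP5/mock5, 6.56 in IP5/mock6 and 7.74 in IP6/mock6, and it lay at place 0.643, far from either gene border. The next by the lower of its 2 replicate folds (chr7:19911739-19913044) had 6.53, 9.11 and 6.38 and lay inside a pair of genes on opposite strands, Os07g0516600 and Os07g0516650. A region at place 0.351 of Os08g0399600 (chr8:19063346-19064093) had 5.75, 5.60 and 6.02. A region at place 0.591 of Os06g0113900 (chr6:798497-800593) had 5.60, 3.93 and 6.92. These 4 were the gene-body regions at 5 or more in both replicates. All 4 lay inside their genes, and none began within 100 bp of a gene start.

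Over the whole set the median folds near to and far from the start lay close together in the lists with IP5. In IP6/mock6 the median farther in was lower. The 219 regions inside a gene within 100 bp of its start had medians of 3.33, 3.85 and 2.98 in IP5/mock5, IP5/mock6 and IP6/mock6. The 195 inside regions farther in had 3.35, 3.85 and 2.85, and the 47 regions found at gene ends alone had 3.32, 3.53 and 3.08. A fold of 4 or more in both replicates was reached by 17 (7.76%), 11 (5.64%) and 2 (4.26%) of them. The share over all confident regions was 7.56%. In IP6/mock6 alone, 15.1%, 10.8% and 21.3% of them reached 4, against 18.0% over all confident regions.

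Other regions were much higher in IP5/mock5 than in IP6/mock6. Those below were picked by their IP5/mock5 fold, which favours a gap in that direction. Of all 461 gene-body regions, 293 were higher in IP5/mock5 than in IP6/mock6. The highest IP5/mock5 fold, 7.39, was in Os06g0606800 (chr6:24095768-24096105), 5 bp from the gene start, where IP6/mock6 gave 3.77. The region of Os08g0289000 (chr8:11488025-11489689, place 0.384) had 7.36 in IP5/mock5 and 4.78 in IP6/mock6. Os03g0374901 had 7.27 and 3.52 in the same pair of lists. Os03g0648300, 13 bp from its start, had 6.90, 5.09 and 3.58, and Os04g0471400, 179 bp from its start, had 6.90, 3.25 and 4.13. Of the hosts in this paragraph, Os08g0289000 and Os04g0471400 were at 4 or more in both replicates. OsDXS2 (Os06g0142900, chr6:2256367-2256635), which encodes an enzyme of the first step of the plastid isoprenoid pathway, had 6.90 in IP5/mock5, 3.99 in IP5/mock6 and 3.35 in IP6/mock6, in a region 4 bp from the gene start. The difference between replicates was wide at Os04g0613200, with 6.77 in IP5/mock5 and 2.11 in IP6/mock6.

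Other regions, picked by their IP6/mock6 fold, were higher in IP6/mock6 than in IP5/mock5. Lsi6 (Os06g0228200, chr6:6648264-6649291), which encodes a silicon channel of the aquaporin family, had 2.38 in IP5/mock5, 4.35 in IP5/mock6 and 7.33 in IP6/mock6. Its region crossed the gene end. OsPR2 (Os05g0375400, also listed as Gns1, a glucanase gene) had a region across the gene end as well, with 4.03, 4.79 and 6.06, so at 4 or more in both replicates. The YABBY gene OsYAB6 had 3.88, 4.85 and 6.27, in a region 281 bp from the start of a gene of 9659 bp (chr12:26477919-26478297). OsBLH1, a BEL1-type homeobox gene, had 2.10, 5.22 and 5.78 in a region that also lay inside Os12g0160650 on the other strand. For Lsi6 and OsBLH1 the 2 folds of IP5, over mock 5 and over mock 6, differed by more than 1.5-fold, so the value moved with the choice of mock library.

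Most regions had 1 host. Of the 461, 414 had 1 and 47 had 2, and in 44 of those 47 the hosts lay on opposite strands. A region in such a pair has 2 relative places. The region of Os07g0516600 lay at 0.332 of that gene and at 0.618 of its partner. Besides its host, a region could be listed for a neighbour: 157 regions (34.1%) were also upstream of another gene, at a median distance of 1874 bp, and 56 were within 1000 bp of that neighbour's start. For 205 regions (44.5%) the hosts were the only genes listed. Of the 492 hosts, 39 also had a start-crossing region.

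In all, 16 hosts held 2 gene-body regions each. The NADPH oxidase gene rbohG (Os09g0438000), of a family that makes reactive oxygen at the plasma membrane, had the highest IP6 fold among them. Its first region (chr9:16187536-16188212, place 0.147) had 3.76 in IP5/mock5, 6.58 in IP5/mock6 and 6.69 in IP6/mock6. Its second (chr9:16189470-16189817, place 0.310) had 2.63, 3.85 and 3.92, lower in each list. OsARF17, an auxin response factor gene, had a region 6 bp from the start with 4.06, 4.06 and 2.63 and another 543 bp from it with 5.17, 4.29 and 2.04. OsRLCK85, listed also as OsER2, a relative of the Arabidopsis receptor kinase gene ERECTA, had regions 55 and 783 bp from the start. The first had 4.43, 4.18 and 2.72 and the second 2.36, 5.48 and 3.38.

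Homeobox genes were among these hosts. Roc6(t), of the HD-Zip IV family, had regions at places 0.0812 and 0.372, with IP6/mock6 folds of 2.95 and 2.34. Oshox4, an HD-Zip gene, had one at 0.144 and one across the gene end at 1.10, with 2.22 and 2.40. The ubiquitin-conjugating enzyme gene Rad6 and its opposite-strand neighbour Os03g0792050 shared a pair of adjacent regions, at 0.327 and 0.447 of Rad6. The first of them (chr3:32933454-32934165) had 6.68, 3.98 and 4.65, and the second 3.69, 4.32 and 2.83. The D-type cyclin gene CycD6;1 shared its pair with Os07g0556066 in the same way, with IP6/mock6 folds of 2.30 and 2.22. OsXTH23, for an enzyme that remodels cell wall xyloglucan, had one region near the start and one at 0.706, with 2.61 and 2.33. OsWD40-198 had 3.38 and 2.56 at places 0.243 and 0.845. The other hosts with a pair have no symbol in the table. They are Os01g0180400, Os02g0667600, Os02g0806350, Os07g0143500 and Os07g0546400, with IP6/mock6 folds between 2.11 (Os02g0667600) and 4.19 (Os07g0143500).

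**Figure D4:**
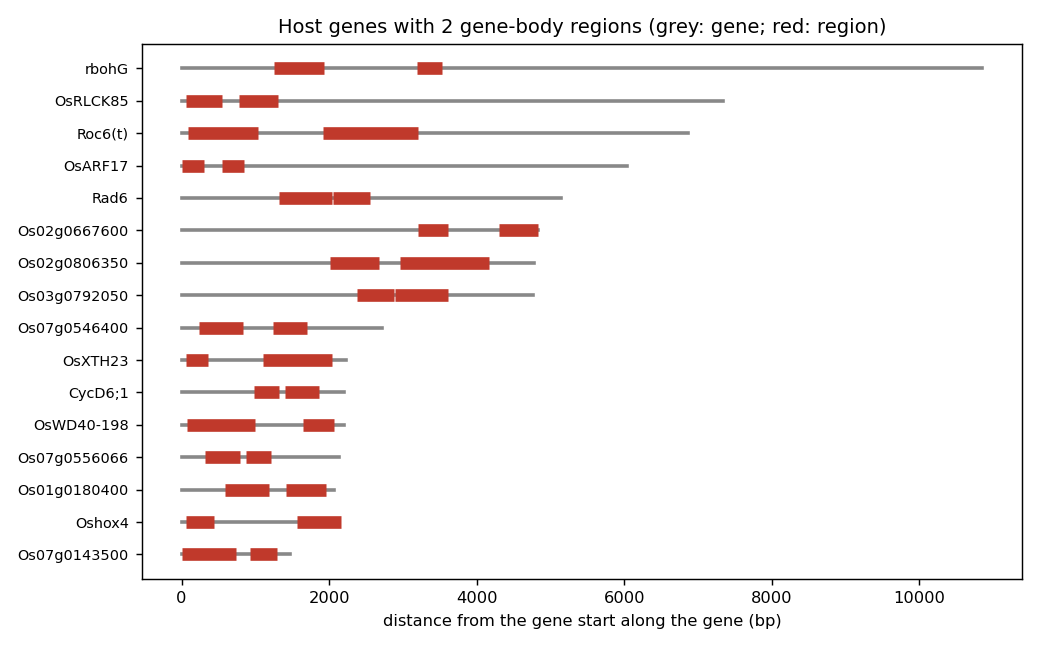
Gene-body regions (red) along the 16 hosts (grey lines) that hold 2 of them, in bp from the gene start; genes run left to right in their own direction and are sorted by length. Rad6 and Os03g0792050, and CycD6;1 and Os07g0556066, lie on opposite strands and show the same regions.

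Hosts were read by the symbols the authors' table gives. A symbol was listed for 214 of the 492 hosts and for 878 of the 2589 genes of the table, so 24.4% of genes with a symbol were hosts. That share is the background for the families below. The classes and lists were written by symbol with the hosts known, and their counts describe the set without supporting a preference for any family. Among hosts with a symbol, 54 (25.2%) fell in the class of transcription factors, where 157 of the table's genes (17.9%) did. The hormone class held 25 hosts of 65 genes, the cell wall class 19 of 45, the class of kinases and receptor kinases 16 of 62, the F-box and ubiquitin class 17 of 71 and the transporter class 13 of 65.

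Many of the auxin genes in the table were hosts. Auxin response factors (ARFs) bind DNA and mediate transcription in response to auxin, and Aux/IAA proteins repress them. Of the 8 ARF genes in the table, 6 were hosts, with 7 regions, and 4 of the 8 Aux/IAA genes. Together with OsLAX1 (listed also as OsAUX1, an auxin influx carrier), the auxin list had 11 hosts of 18 genes. Of its 12 regions, 10 began within 100 bp of the gene start (83.3%), where 220 of all 440 inside pairs did. None of the 12 crossed a gene end. Of the 12, 6 had a fold of 4 or more in IP5/mock5, where the share over all confident regions was 29.9%. In IP6/mock6 0 had one, where that share was 18.0%, and with 12 regions neither count is read as a difference. The list's median in IP6/mock6 was 2.79, against 2.95 over all gene-body regions.

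Among the ARFs, OsARF2 (chr1:40695736-40697137, 72 bp from the start) had 3.80 in IP5/mock5, 5.72 in IP5/mock6 and 3.71 in IP6/mock6. It was the highest of the auxin list in IP6. OsARF6a, 12 bp from the start, had 2.91, 3.51 and 3.06. OsARF6b, 9 bp from the start, had 4.43, 3.99 and 2.43. The region of OsARF10, at 43 bp, had 2.12, 3.03 and 2.78. OsARF7a differed in place, with a region 804 bp in and folds of 3.05, 5.32 and 2.48. Of the Aux/IAA genes, OsIAA13 had 5.54, 3.17 and 2.96 and OsIAA17 had 4.02, 4.06 and 3.08. OsIAA21 had 3.57, 3.19 and 2.97, and OsIAA30 had 4.19, 3.42 and 2.48. The 4 Aux/IAA regions began 22 to 100 bp from the start.

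A list of 8 genes known from panicle and meristem development, picked by symbol with the hosts known, held 7 hosts. It is not the full set of such genes. Under the gene ontology term inflorescence development the authors list 49 genes near confident regions, of which 17 were hosts (34.7%). The share of hosts was 19.0% over all genes of the table. Over the authors' 29 terms with 10 or more genes its median was 30.4%. The YABBY gene OsYAB4 (listed also as TOB2, known in the spikelet meristem) had a region 1 bp from its start (chr2:25841294-25842581) with 4.25, 4.22 and 3.10. YAB2 (also OsSh1, a seed shattering gene) had one 310 bp in, with 3.77, 5.05 and 2.72. With OsYAB6 above, all 3 YABBY genes of the table were hosts. The BEL1-type homeobox gene qSH1, for the loss of seed shattering in cultivated rice, had a region at place 0.428 (chr1:36447476-36448573) with 2.99, 3.92 and 2.93. The KNOX gene OsKn2 (also OSH71) had one 11 bp from the start with 3.65, 5.88 and 2.63. OsSPL13, the 1 host among 7 SPL genes of the table, had 5.56, 4.77 and 3.10 at place 0.517. OsTDL1A, whose product is a ligand of the receptor kinase MSP1 in the anther, had 3.84, 3.92 and 2.67 at place 0.608, and the grain length gene GL7 had 3.53, 3.54 and 2.84. No MADS gene was a host (0 of 3 in the table), nor was a gene of the flowering time list (0 of 2).

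Further families with several hosts were spread along their genes in different ways. All 5 genes of the INDETERMINATE DOMAIN (IDD) zinc finger family in the table were hosts. OsIDD13 was at 4 or more in every list, with 4.45 in IP5/mock5, 4.01 in IP5/mock6 and 4.00 in IP6/mock6, in a region 287 bp from the start. OsIDD5 had 2.71, 3.93 and 4.17. The regions of OsIDD3 and OsIDD6 lay at places 0.814 and 0.872. Of the 6 GATA factor genes 4 were hosts, with IP6/mock6 folds of 2.23 to 3.57. Of the 14 WRKY genes 4 were hosts, and none of their regions began within 100 bp of the start. OsWRKY107 was highest of them in IP6, with 3.53, 4.28 and 4.48 at place 0.647. Of the 13 bHLH genes 3 were hosts. OsbHLH009, listed also as OsMYC2, a factor of the jasmonate response, had 4.67, 6.53 and 3.47, and OsbHLH059 had 6.28, 6.28 and 2.96.

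The SR proteins, which guide the choice of splice sites, had 4 hosts of 5 genes, and all 4 regions began 3 to 33 bp from the gene start. Os-RS2Z37 had 4.68 in IP5/mock5, 4.51 in IP5/mock6 and 4.44 in IP6/mock6. OsSR45 had 3.001, 4.19 and 4.44. Os-RSZ23 had 2.56, 2.97 and 3.31, and OsSCL30 had 3.22, 4.65 and 2.43. The folds of these 4 genes overlapped those of the other hosts. OsRH38, an RNA helicase gene, had 2.86, 3.35 and 3.76 at 24 bp from its start.

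**Figure D5:**
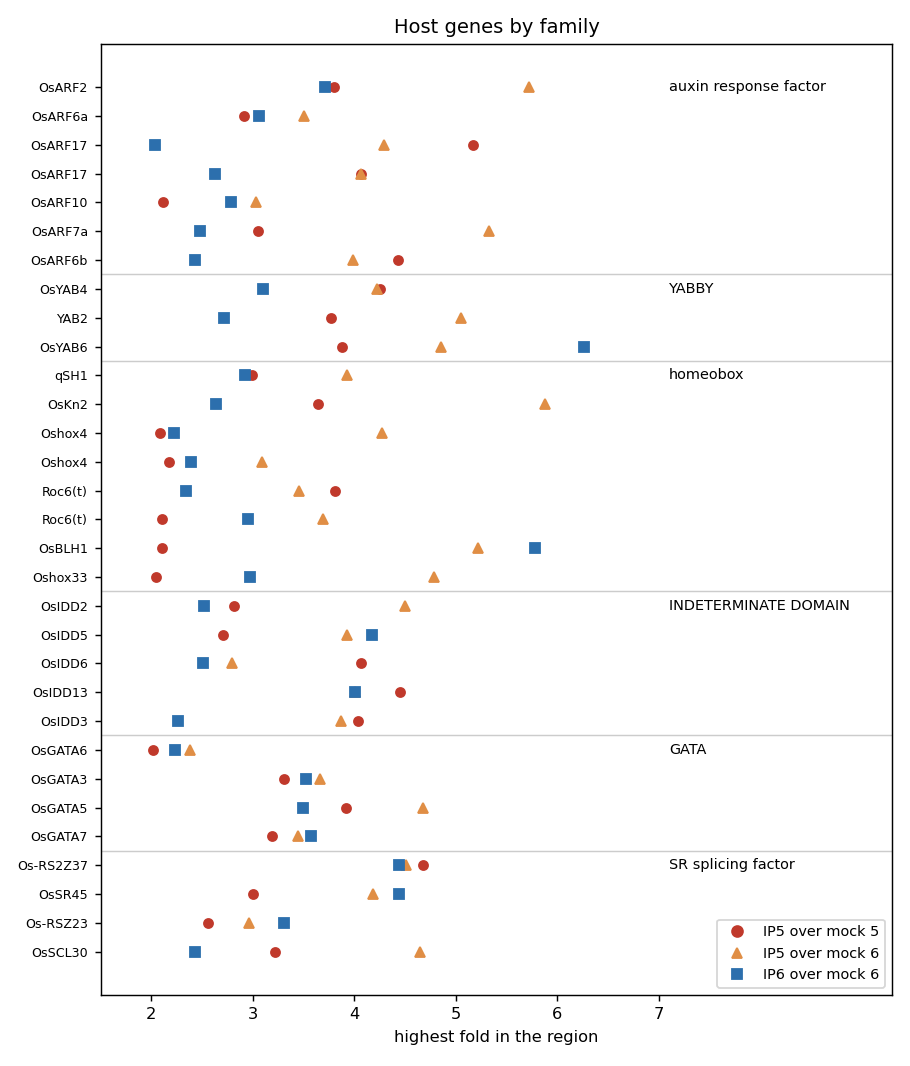
Highest fold of each gene-body region in hosts of 6 families, in IP5/mock5 (circles), IP5/mock6 (triangles) and IP6/mock6 (squares); a host with 2 regions has 2 lines. The spread differs by family, from 2.02 to 4.68 in GATA genes and from 2.04 to 5.88 in homeobox genes. OsYAB6 (6.27) and OsBLH1 (5.78) are the highest in IP6/mock6.

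Receptors and enzymes of other hormones were hosts too. The brassinosteroid receptor gene OsBRI1 (Os01g0718300, chr1:29929348-29931384) had a region of which the edge lay 68 bp from the gene start, with folds of 2.66, 3.69 and 3.44. OsBZR1, a factor that acts downstream of that receptor, had a region across its gene end with 3.61, 4.73 and 2.77. The cytokinin receptor kinase gene OHK2 (also OsHK3) had 4.14, 3.91 and 3.83 at 645 bp from the start. The gibberellin-responsive factor gene OsGAMYB, known in the anther, had 3.62, 2.59 and 3.23 at 26 bp. The gene eui1, for an enzyme that inactivates gibberellins, had 2.12, 2.41 and 2.64 at 72 bp of a gene of 9805 bp. OsPP2C60, of the phosphatase family that holds the repressors of abscisic acid signalling, was at 4 or more in each list, with 5.16, 5.17 and 4.40, and 3 bp from its start.

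Of kinases, 10 of 23 receptor-like cytoplasmic kinase genes were hosts. After OsRLCK31 the highest in IP6 was OsPUB54, which carries a U-box domain as well by its symbol, with 5.77, 5.01 and 4.54 at place 0.148 (chr10:21471829-21472181). The chitin receptor kinase gene OsCERK1 had 2.96, 2.79 and 3.30. OsPUB51, a U-box gene by its symbol, had 2.82, 3.94 and 3.76 at 17 bp from its start. None of the 18 genes named for a MAP kinase cascade was a host. Of cell wall genes, OsCslF6, for a mixed-linkage glucan synthase, had 5.25, 5.03 and 3.78 at place 0.355, OsFLA26 had 3.41, 3.04 and 4.50 across its gene end, and OsXTH3 had 3.03, 4.21 and 4.42 there. Of transporters, OsOSCA2.1 had 2.95, 4.07 and 4.92 at 9 bp from its start, and OsPTR2 had 4.26, 4.30 and 3.47 at place 0.921. Among oxidoreductases OsPrxII C had 5.14, 5.54 and 4.40 at 28 bp, and OsTRXh10 had 2.36, 3.48 and 3.02. The class of disease resistance genes had 1 host of 3, OsRPP8, with 3.54, 3.76 and 3.10 at 8 bp from its start.

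The authors' deposited table of gene ontology terms lists the genes near any confident region under each term, and hosts were counted among them. Of 27 genes that the authors' deposited table puts under the auxin mediated signaling pathway, 12 were hosts (44.4%). Under brassinosteroid mediated signaling the authors' deposited table lists 23 genes, of which 11 were hosts. Under flower development it was 8 of 15 in the authors' deposited table, and these were OsBRI1, OsGAMYB, OsARF6a, OsARF6b, OsARF10, OsARF17, OsXTH27 and Os03g0743400. Of those 8 genes 4 are ARFs, and the terms share members. Across the 29 terms with 10 or more genes in the authors' deposited table the median share of hosts was 30.4%, from 7.14 to 53.3%. The terms were enriched over all confident regions in the authors' analysis, so a share of hosts within them says how the term's genes divide by region place and not that gene bodies are enriched.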

How the data were processed

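ChIP-seq of OsMADS2 (2 libraries) and IgG mock (2 libraries) was analysed from the authors' deposited files. Trimming, alignment and peak tools (fastp, Bowtie2, SAMtools, deepTools, MACS2) are named without versions in the submitters' processing notes. The authors deposited read counts per library and 3 peak lists, which compare single libraries: IP5/mock5, IP5/mock6 and IP6/mock6. Each list holds a fold enrichment, a ratio by the peak caller, and −log10 p-values and q-values deposited by the authors. Gene positions, distances and lengths in bp came from the authors' deposited table of confident regions, whose regions, per the file headers, are peaks overlapping in all lists.

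Regions were sorted by the deposited position words, and peaks matched at 1 bp of overlap or more. Medians carry order-statistic intervals and shares Wilson 95% intervals, over regions and for counting error only. Counting was tested on simulated data. No test across regions was made. The p-values of the lists were used only as a q limit of 0.01 in an alternative. Named genes are the 8 hosts of highest fold in either replicate list and in the lower of both, the 5 longest hosts, hosts with 2 regions, hosts shared by 1 region, the regions nearest the border of the rule, members of the gene lists and the 3 of highest IP6 fold in each class. 1 of the 5 longest hosts is not reported here. Genes named beyond that rule as examples of a family, and prx56, were chosen after their values were seen. The members, classes and lists were chosen with earlier results of these data known. Python 3.11.15, numpy 2.4.6, pandas 2.3.3 and matplotlib 3.10.9 were used.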

Additional observations from a re-analysis of the deposited data

How the results depend on the processing

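IP5 was the shallowest library, the lists give folds without read counts per peak, and no region was tested between the 2 replicates. Of 59 comparisons with an alternative setting, 44 stayed within the interval of the reported value, or within 1.5 times for a count, and 15 did not. For place, leaving out IP5 or IP6 meant taking the midpoint of the highest peak in the list of the other replicate. Those comparisons repeat the alternatives by highest peak, so the 44 include repeated values and are not all separate checks. Leaving out regions that are also upstream of another gene gave 304 regions, a share of 14.1% in the last 20% of the gene and a median host length of 3661.5 bp. With pairs inside a gene alone the median place was 0.173, with 51.6% in the first 20% and 7.95% in the last. With hosts of 3 kb or longer these were 0.102, 62.2% and 14.8%. With 1 pair a region the last 20% held 15.2%. The median fold of IP5 was 3.83 without mock 5. The share at 4 or more in both replicate lists was 6.07 to 6.51% under other ways of matching peaks, and 9.33 to 31.5% without 1 library, which changes what must pass: without IP5 13.9%, without IP6 20.2%, without mock 5 9.33% and without mock 6 31.5%. Without IP5 or IP6, the median place was 0.243 to 0.244, the first 20% held 45.7 to 46.9% and the last 15.6 to 21.9%. The planned use of peak summits was not run, since the lists as used here give no summits. Leaving out a library could not be carried to the choice of regions, which the authors built from all lists. No paired analysis was possible because no result comes from a test between groups of samples, so there is no fit to which a replicate block could be added. The folds within IP5/mock5 and IP6/mock6 are given side by side instead.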
